A study of Homo sapiens with 4 samples.

Results

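The genes described here were 10 human tubulin genes, TUBA1A, TUBA1B, TUBA1C and TUBA4A for alpha-tubulin and TUBB, TUBB2A, TUBB2B, TUBB3, TUBB4B and TUBB6 for beta-tubulin, out of 19775 genes with a probe set of their own. They were chosen by name, together with every probe set annotated to them, which gave 21 probe sets, of which 20 were assigned to 1 gene and 1 was shared by TUBB2A and TUBB2B. The cells were MM.1S, an established human multiple myeloma line, treated with 250 nM MLN4924 for 8, 16 or 24 h or with the vehicle DMSO as the control, for which no culture time was given. MLN4924 blocks the enzyme that activates NEDD8, a small protein whose attachment switches on the cullin-RING ubiquitin ligases. One total RNA sample of each group was hybridised to 1 Affymetrix expression array, 4 arrays in all, so no value below has a replicate or a test and each difference is that of 1 array from another. The study asked what treatment does to the expression profile at each time.

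Alpha- and beta-tubulin pair into the dimers from which microtubules grow, and microtubules form the mitotic spindle and the tracks of intracellular transport. The human genes encode closely related isotypes, some found in nearly all dividing cells and others, among them TUBB2B and TUBB3, known chiefly from neurons. Cells also watch their pool of free dimers, since a surplus triggers decay of tubulin mRNAs while they are being translated, through the ribosome-binding factor TTC5, the adaptor SCAPER and the CCR4-NOT deadenylase complex. The close kinship of the genes limits an array as well, because a short probe can match several of them. Of the 21 probe sets 15 had names ending in _x_at, the mark of probes that may match other transcripts, 1 ended in _s_at and 5 had neither ending.

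Values are the authors' intensities, and differences are on the log2 scale after raising values to a floor of 48.4. A gene was read from its probe set with the highest mean, and counted as measured with that mean above the middle value over the array (93.9), which held for 9 of the 10 tubulin genes and 12446 genes in all. The 10th, TUBB6, a beta-tubulin, had intensities of 25.1 (control), 31.9 (8 h), 37.2 (16 h) and 29.1 (24 h), all under the floor, and gives no difference. Among the 5719 genes with several measured probe sets, the pooled SD of the difference between probe sets of 1 gene came to 0.160 (8 h), 0.189 (16 h) and 0.180 (24 h). These SDs stand in for technical spread and leave out the spread between cultures. Median array intensities were 92.2 to 95.4. Each of the 11 plasma cell markers, SDC1, IRF4 and XBP1 among them, was measured, against 1 of 8 fibroblast markers, 3 of 8 T and NK cell markers, 3 of 7 myeloid markers and 2 of 3 erythroid markers with a probe set. Summed marker intensities on the control, 8, 16 and 24 h arrays were 729.6, 753, 747 and 748 for fibroblasts, 615, 629, 604 and 632 for T and NK cells, 600.1, 627, 631 and 639 for myeloid cells and 1314, 1271, 1255 and 1463 for erythroid cells. Their part in the tubulin results was not tested.

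At 24 h all 9 measured tubulin genes were lower in MLN4924-treated cells than in control cells, with a median difference of -0.41 (range -1.23 to -0.23), against a median of 0.016 over all measured genes. Of all measured genes 47.4% were below 0 at that time. The same 9 of 9 were below 0 at 16 h (median -0.24), where 45.7% of all measured genes were. Of the 19 measured tubulin probe sets 15 were _x_at sets, so the 9 genes may share signal and are not 9 independent readings. At 8 h 6 of 9 were below 0 against 48.3% of all measured genes, and the median was -0.0033, so the lower level belonged to the later arrays for most of the family. The differences were mostly small, and only TUBB2B was at least 2-fold lower, at 16 h (0.289% of all measured genes) and at 24 h (0.193%), while none was 2-fold different at 8 h (0.121% of all genes were 2-fold lower). At 24 h 5 of the 9 genes, TUBA1B, TUBA1C, TUBB, TUBB2A and TUBB2B, were lower by over 2 pooled SDs, as were 8.06% of all measured genes, against 2 of 9 at 8 h (6.23%) and 2 of 9 at 16 h (7.43%). At the smaller size of 1.5-fold, chosen after the data were seen, TUBB2B and TUBA1A were lower at 8 h (1.12% of all measured genes) and TUBB2B and TUBB2A at 24 h (2.31%). In a bulk sample a smaller share of cells that express a gene cannot be told apart from less of its RNA per cell.

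**Figure D1:**
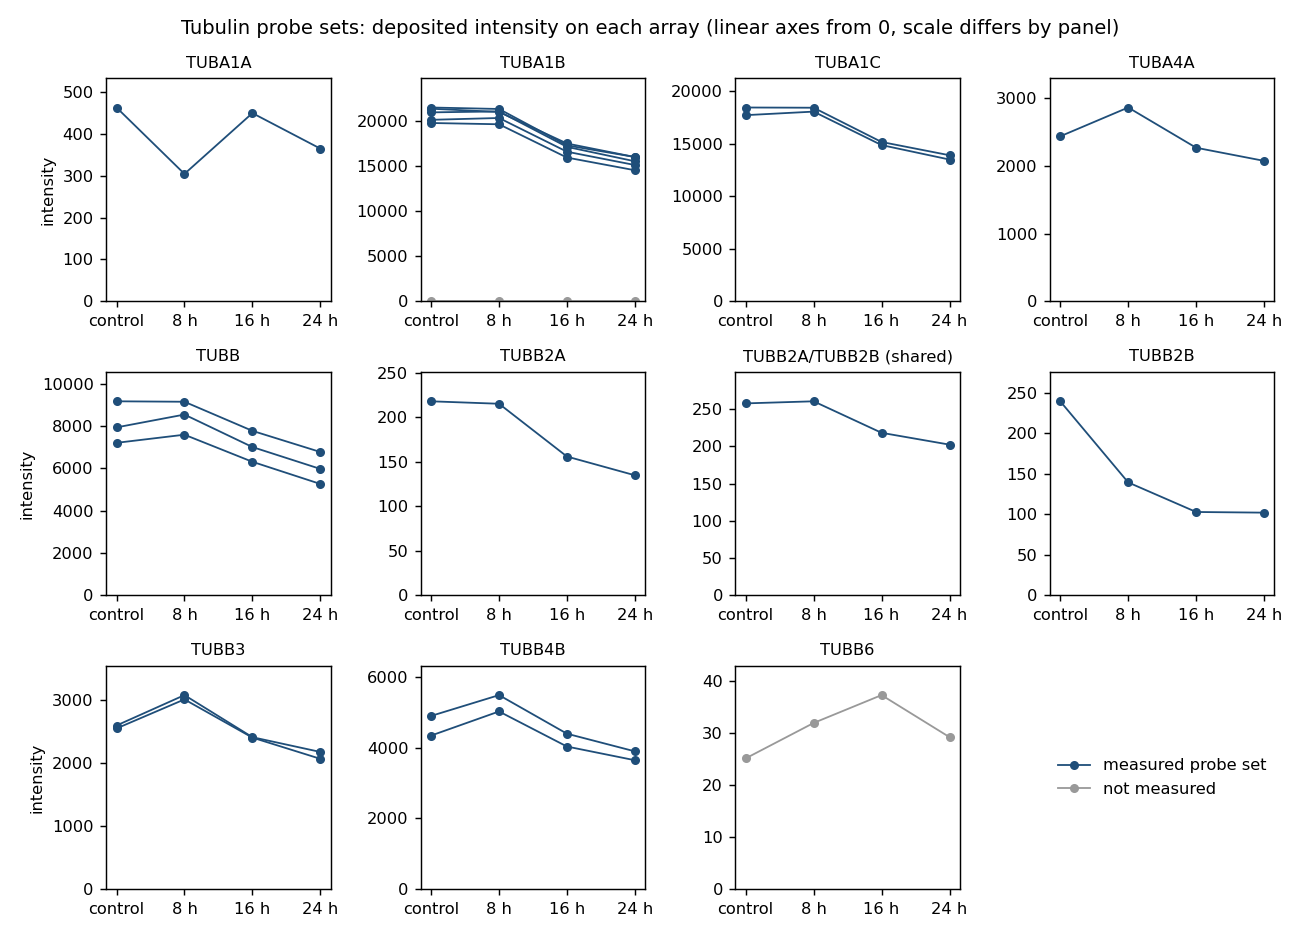
Deposited intensity (linear axis from 0, its scale differing by panel) of each probe set of each tubulin gene on the control array and after 8, 16 and 24 h of MLN4924. Each line is 1 probe set, and grey lines were not measured. TUBB2B was already lower at 8 h (139, against 239.7 on the control array), TUBA1A had its lowest value at 8 h, and TUBA1B, TUBA1C and TUBB were near their control level at 8 h and lower at 16 and 24 h.

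The promoters of 4 members are shown because they pair genes that lie side by side and whose values ran differently over the 4 arrays. TUBB2A and TUBB2B are neighbours on chromosome 6 with 0 protein-coding genes between them, and TUBA1B, TUBA1A and TUBA1C stand in that order on chromosome 12, likewise with 0 between each pair. The sequences, from RefSeq on build GRCh38.p14, run from 250 bases before to 50 bases after the gene start on the minus strand, at chr6:3227604-3227903 for TUBB2B, chr6:3157495-3157794 for TUBB2A, chr12:49189031-49189330 for TUBA1A and chr12:49131346-49131645 for TUBA1B. Capitals mark, on either strand, the TATA box letters TATAAA, the CCAAT box letters CCAAT, the GC box letters GGGCGG and CGTCA, which is the shared end of the cyclic AMP response element TGACGTCA and so overlaps it.
TUBB2B: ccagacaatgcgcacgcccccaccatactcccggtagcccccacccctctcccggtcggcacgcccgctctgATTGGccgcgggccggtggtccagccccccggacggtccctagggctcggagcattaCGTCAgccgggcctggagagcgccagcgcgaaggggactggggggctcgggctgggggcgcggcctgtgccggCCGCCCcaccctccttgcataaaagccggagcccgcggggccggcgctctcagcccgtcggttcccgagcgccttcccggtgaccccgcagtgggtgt
TUBB2A: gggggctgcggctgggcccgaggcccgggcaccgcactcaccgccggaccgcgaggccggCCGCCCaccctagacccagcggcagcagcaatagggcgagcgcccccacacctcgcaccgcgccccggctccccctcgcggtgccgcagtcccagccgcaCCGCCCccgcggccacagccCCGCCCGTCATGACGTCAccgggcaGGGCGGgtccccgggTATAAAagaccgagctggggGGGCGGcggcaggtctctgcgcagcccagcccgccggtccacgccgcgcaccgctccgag
TUBA1A: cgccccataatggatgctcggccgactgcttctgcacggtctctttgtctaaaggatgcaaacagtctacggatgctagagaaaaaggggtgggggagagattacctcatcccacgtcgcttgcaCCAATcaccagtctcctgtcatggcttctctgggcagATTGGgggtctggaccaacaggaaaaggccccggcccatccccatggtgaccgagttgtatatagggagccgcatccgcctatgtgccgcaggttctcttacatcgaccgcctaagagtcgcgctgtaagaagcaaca
TUBA1B: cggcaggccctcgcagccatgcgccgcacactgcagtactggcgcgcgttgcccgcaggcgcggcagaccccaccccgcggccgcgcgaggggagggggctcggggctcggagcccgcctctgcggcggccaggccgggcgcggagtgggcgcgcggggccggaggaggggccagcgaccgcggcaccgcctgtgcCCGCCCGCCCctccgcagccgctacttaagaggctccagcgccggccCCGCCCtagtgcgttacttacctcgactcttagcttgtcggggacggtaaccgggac
The TUBB2A window holds TGACGTCA starting 60 bases before the start site and TATAAA starting 30 bases before it, while the TUBB2B window has neither, and has CGTCA starting 121 bases before the start. The TUBA1A window holds CCAAT at 2 places and no GC box, and TUBA1B has GC boxes only, with a GC content of 77.0% against 55.7% in TUBA1A. Among all 35116 promoter windows of this length, 34.6% hold CCAAT, 45.0% GGGCGG, 11.5% TATAAA, 24.6% CGTCA and 1.85% TGACGTCA. All 10 genes had at least 1 window, 15 in all, of which 9 hold CCAAT and 9 hold GGGCGG. Also searched were CACGTG, the E-box letters, which 7.26% of all windows and those of TUBA1C and TUBB hold, and TGACNNNGC, the core letters of the antioxidant response element, which 13.3% and those of TUBB2B and TUBB3 hold. A match of these letters is a description and not a binding site.

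TUBB2B, a beta-tubulin of neurons in the main, had the largest difference of the family at each time. Its probe set 214023_x_at had intensities of 239.7 (control), 139 (8 h), 103 (16 h) and 102 (24 h). All 3 treated arrays lay below the control, and most of the gap was present at 8 h, with the 16 and 24 h arrays nearly equal. The differences from control were -0.78, -1.22 and -1.23, or 1.72-, 2.33- and 2.35-fold lower. At 24 h 0.0482% of measured genes had a lower difference. The 16 and 24 h intensities were close to the limit for calling a gene measured (93.9), so the sizes of these folds are uncertain, and TUBB2B had no second probe set of its own.

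Its neighbour TUBB2A, which encodes a nearly identical isotype, followed a later course. TUBB2A had intensities of 218 (control), 215 (8 h), 156 (16 h) and 135 (24 h) with probe set 204141_at, whose name has no mark of cross-matching. It stood within 0.018 of the control at 8 h, and at -0.48 and -0.69 at 16 and 24 h, 1.62-fold lower at the last. The TUBB2B difference minus that of TUBB2A was -0.76, -0.74 and -0.54 at 8, 16 and 24 h, so the gap was present at 8 h and narrower at 24 h. The probe set shared by the pair, 209372_x_at, read 258, 261, 218 and 202 on the control, 8, 16 and 24 h arrays. Its differences of 0.016, -0.24 and -0.35 showed no drop at 8 h and a smaller one later than either gene's own probe set. The shared probe set thus did not follow TUBB2B at 8 h, and the TUBB2B value at that time rests on 1 probe set.

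Among the alpha-tubulins, TUBA1B and TUBA1C, the ubiquitous isotypes of dividing cells, gave the same profile. The 5 measured probe sets of TUBA1B differed from control by -0.025 to 0.014 at 8 h, by -0.31 to -0.28 at 16 h and by -0.44 to -0.41 at 24 h. In the probe set that stands for the gene, 211072_x_at, intensities were 21523 (control), 21359 (8 h), 17315 (16 h) and 16026 (24 h). TUBA1C, in 209251_x_at, had 18439 (control), 18418 (8 h), 15158 (16 h) and 13896 (24 h). For both genes the control and 8 h arrays were nearly equal and the later pair lower, 1.34-fold for TUBA1B and 1.33-fold for TUBA1C at 24 h. All 7 of these probe sets are _x_at sets, so TUBA1B and TUBA1C cannot be told apart here and their agreement is not that of independent measurements. A 6th TUBA1B probe set, 1565668_at, was under the floor on each array (34.2 at most).

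These alpha-tubulin probe sets were among the brightest of the arrays, whose highest values were 37406 to 38884. Other bright genes give the usual size of a difference at that brightness. Of 139 other genes with a mean intensity above 10000, the median difference at 24 h was -0.025 and the 10th percentile -0.23. Only 2 of these 139 genes had a lower 24 h difference than TUBA1B and 3 had a lower one than TUBA1C.

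TUBA1A, an alpha-tubulin known for its part in the developing brain, ran unlike its neighbours. Its single probe set 209118_s_at had 463 (control), 304 (8 h), 449.6 (16 h) and 365 (24 h). The 8 h array was the lowest, 1.52-fold below the control, and the 16 h array was within 0.042 of it. At 8 h 1.01% of measured genes had a lower difference than TUBA1A, while between 8 and 16 h its difference of 0.56 was above that of 97.9% of them. TUBA1A was the only one of the 9 genes above 0 in the 16 h minus 8 h comparison, where 47.1% of all measured genes were below 0. Such a course was seen in 1 probe set with no second one to compare.

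TUBA4A, an alpha-tubulin prominent in muscle, platelets and nerve, had 2435 (control), 2859 (8 h), 2266 (16 h) and 2072 (24 h) in 212242_at. It was 0.23 above the control at 8 h and -0.23 at 24 h, so the treated arrays lay on both sides of the control.

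TUBB, the major beta-tubulin of dividing cells, had intensities of 9178 (control), 9157 (8 h), 7779 (16 h) and 6778 (24 h) in 212320_at. This probe set, with no mark of cross-matching, put TUBB at -0.0033, -0.24 and -0.44. Its other probe sets, 209026_x_at and 211714_x_at, stood at 0.075 and 0.11 at 8 h, -0.19 and -0.18 at 16 h and -0.45 and -0.41 at 24 h. All 3 TUBB probe sets were thus lowest at 24 h, and they differed by less than the pooled SD among themselves at each time. Of the 307 other genes with mean intensities from 5000 to 10000, 13 had a lower 24 h difference than TUBB.

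TUBB4B and TUBB3 had their highest value at 8 h, as did TUBA4A. TUBB4B, a widely expressed beta-tubulin also found in cilia, had 4896 (control), 5486 (8 h), 4393 (16 h) and 3893 (24 h) in 213726_x_at. TUBB3, a beta-tubulin used as a marker of neurons, had 2595 (control), 3078 (8 h), 2409.6 (16 h) and 2175 (24 h) in 213476_x_at. In both genes the 8 h array stood above the control and the 24 h array below it. The 8 h differences were 0.16 for TUBB4B and 0.25 for TUBB3, and those at 24 h were -0.33 and -0.25. The second probe set of each had the same signs, 0.21 and -0.25 for TUBB4B and 0.24 and -0.30 for TUBB3. All 4 are _x_at sets, and how far they hold signal from other tubulins was not tested.

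**Figure D2:**
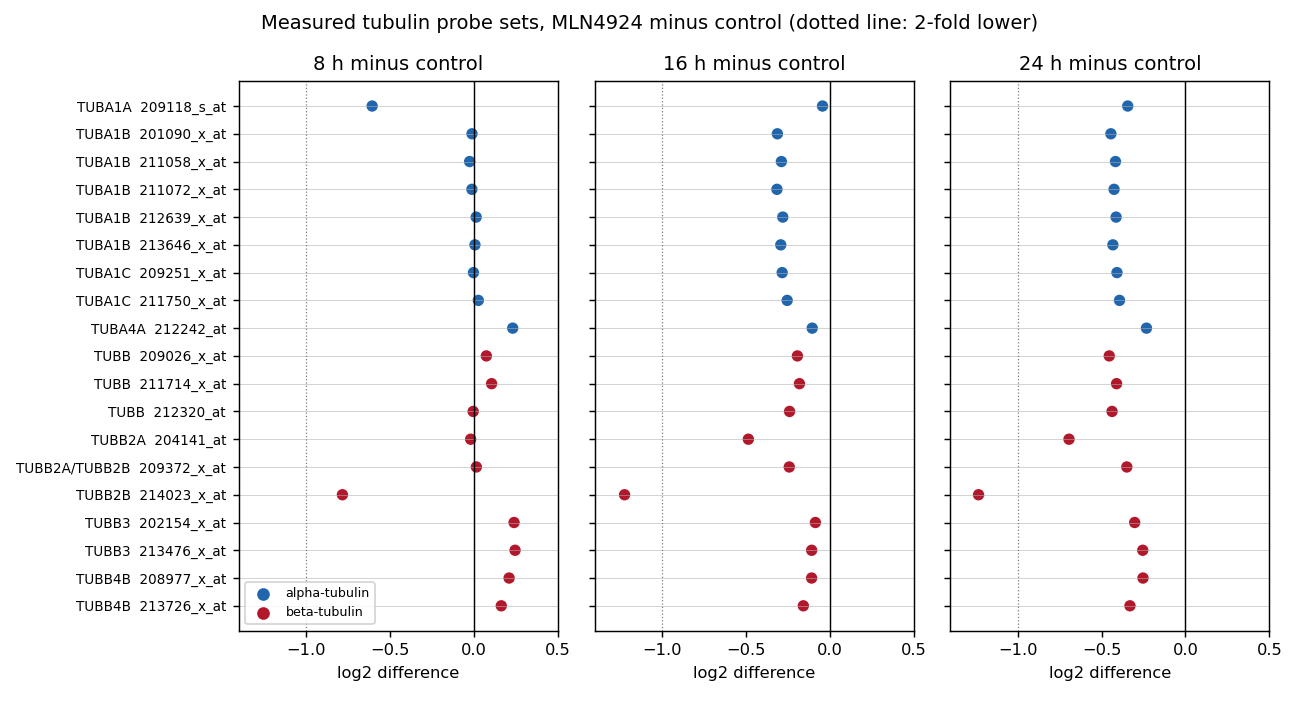
Log2 difference from control (x axis) of each of the 19 measured tubulin probe sets (rows) after 8, 16 and 24 h of MLN4924, with alpha-tubulins in blue and beta-tubulins in red and a dotted line at 2-fold lower. Of the 19 probe sets, 8 were below 0 at 8 h and 19 at 16 h and at 24 h, and only TUBB2B passed the dotted line.

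From 8 to 16 h, 8 of the 9 genes were lower on the later array, as were 47.1% of all measured genes. The median difference of the 9 genes was -0.32, against 0.015 for all measured genes. TUBB2A (-0.47), TUBB2B (-0.44) and TUBB3 (-0.35) were lower by over 2 pooled SDs, as were 6.71% of all measured genes. From 16 to 24 h, 9 of 9 were below 0, as were 54.5% of all measured genes, by smaller amounts, with a median of -0.15. TUBA1A was the lowest in that step (-0.30) and the only one beyond 2 pooled SDs (3.87% of all measured genes), and TUBB2B the nearest to 0 (-0.011). The drop in TUBA1B, TUBA1C, TUBB3, TUBB4B and TUBA4A was larger between 8 and 16 h than between 16 and 24 h. For TUBB the steps were close in size, -0.24 and -0.20 in 212320_at and -0.27 and -0.26 in 209026_x_at. Both steps share the 16 h array, whose error enters them with opposite signs.

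Both classes lay below the control on the later arrays. At 24 h the median was -0.38 over the 4 measured alpha-tubulin genes and -0.44 over the 5 measured beta-tubulin genes, and at 16 h the medians were -0.19 and -0.24. All 4 and all 5 were below 0 at these times, and no test of the gap between the classes was possible.

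**Figure D3:**
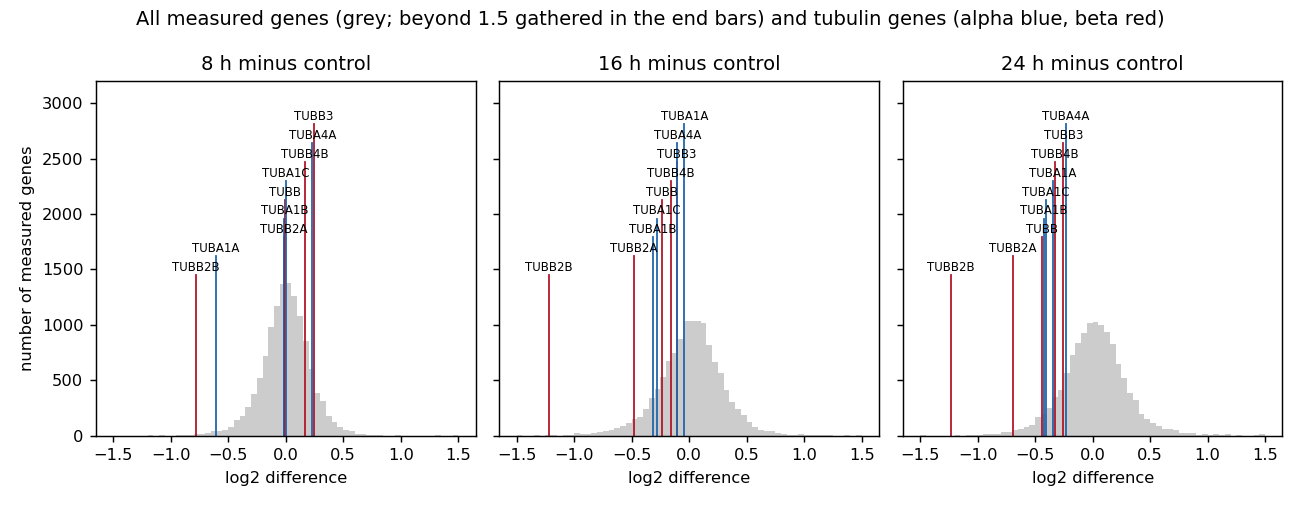
Number of measured genes (y axis) by log2 difference from control (x axis) after 8, 16 and 24 h of MLN4924, in grey, with each measured tubulin gene as a labelled line (alpha blue, beta red; line heights only separate the labels). At 24 h each tubulin line lay left of 0, from TUBB2B at -1.23 to TUBA4A at -0.23, and at 8 h they lay on both sides.

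The most similar course to that of TUBB2B, by Euclidean distance between the 3 differences from control among 12437 other measured genes, was that of PSMC3IP, a cofactor of meiotic recombination (distance 0.22; -0.58, -1.16 and -1.16 at 8, 16 and 24 h). STOM, a membrane protein, followed at 0.33 and PMAIP1, the gene of the pro-apoptotic protein NOXA, at 0.41. Nearest to the median tubulin course were PTMA, which encodes prothymosin alpha (0.0079; -0.011, -0.24 and -0.41), WDR5, a histone methyltransferase cofactor (0.018), and SLC25A17, a peroxisomal carrier (0.020). All of these differences share the control array, and a distance over 3 values is a description.

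Outside the 10 genes, the rarer tubulins did not share the 24 h pattern as a group. Of 12 listed, 8 had a probe set and 5 were measured, with medians of -0.17, -0.089 and -0.078 at 8, 16 and 24 h. Below 0 at 24 h were 3 of the 5, against 47.4% of all measured genes. TUBE1, epsilon-tubulin of centrioles, was the lowest, with 368 (control), 290.4 (8 h), 208 (16 h) and 258 (24 h) (differences of -0.34, -0.82 and -0.51, or -0.17, -0.41 and -0.25 with the median over its probe sets). TUBG1, the gamma-tubulin that seeds microtubules, had 2678 (control), 2384 (8 h), 2549 (16 h) and 2537 (24 h), so it was within 0.17 of its control throughout. TUBG2 stood at -0.37, -0.27 and 0.020 and TUBD1, delta-tubulin, at 0.085, 0.0060 and -0.14.

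Of 23 listed genes that fold tubulin 20 were measured, with medians of 0.066, -0.039 and -0.074 at 8, 16 and 24 h. At these times 5, 11 and 13 of the 20 were below 0, against 48.3%, 45.7% and 47.4% of all measured genes. With the median over probe sets the 16 h list median was 0.0073. None was 2-fold different. The subunits of the CCT chaperonin, which folds both tubulins, stood between -0.23 (CCT3 and CCT5) and -0.10 (CCT8) at 24 h. All 7 with measured values were below 0, none by 2 pooled SDs (0.36), and only CCT3 and CCT5 by over 1 (0.180). CCT4 stood at -0.15, but a further probe set for it lay above the control, and the median over its probe sets was -0.034. TBCE, a cofactor that joins the dimer, stood at -0.33 at 24 h, its relative TBCEL at 0.65, and the prefoldin subunits PFDN5 and PFDN2 at 0.39 and 0.016. PFDN2 had stood at 0.33 at 8 h. For TBCEL the median over its probe sets at 24 h was 0.30.

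The 9 genes of tubulin mRNA autoregulation were all measured and near the control, with medians of 0.063, 0.063 and -0.0029. With the median over probe sets, over 8 genes, the list medians were -0.053, -0.14 and -0.093 at 8, 16 and 24 h. TTC5, which recognises tubulin as it leaves the ribosome, had 235 (control), 248 (8 h), 245 (16 h) and 257 (24 h). SCAPER stood at 0.12, 0.23 and 0.19, or 0.097, 0.092 and 0.19 with the median over its probe sets. Among the CCR4-NOT subunits CNOT10 was the lowest at 24 h (-0.30), CNOT8 stood at 0.20 and CNOT2 at -0.012. With the median over probe sets CNOT8 stood at 0.057 and CNOT2 at 0.13. The largest size in the list at any time was 0.30, under 2 pooled SDs. Enzymes that modify tubulin, 17 of 21 measured, had medians of -0.00025, 0.0054 and -0.059 and no 2-fold difference. In that list AGBL5, which removes glutamates from tubulin, stood at 0.46 at 24 h, VASH2, which removes the last tyrosine of alpha-tubulin, at 0.37, AGBL3 at 0.33 and the polyglutamylase TTLL11 at -0.39. Taken as medians over all probe sets of each gene, these values were 0.39 for AGBL5, 0.098 for VASH2, 0 for AGBL3 and -0.040 for TTLL11.

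Of 18 measured genes of microtubule nucleation 8, 17 and 14 were below 0 at 8, 16 and 24 h, against 48.3%, 45.7% and 47.4% of all measured genes, with medians of 0.039, -0.18 and -0.14. None was 2-fold different at 24 h. The 7 measured subunits of augmin, which grows new microtubules from the sides of existing ones in the spindle, spread widely at 24 h, with HAUS7 at -0.89, HAUS8 at -0.75 and HAUS6 at -0.56, but HAUS1 at -0.12, HAUS5 at -0.077, HAUS3 at -0.070 and HAUS2 at 0.21. The 3 other measured probe sets of HAUS2 had the opposite sign at 24 h, and the median over its probe sets was -0.12. HAUS7 had 579.5 (control), 603 (8 h), 418 (16 h) and 314 (24 h). AKAP9, a centrosome and Golgi scaffold, was 2-fold lower at 16 h (-1.60; -0.53 with the median over its probe sets) and stood at -0.46 at 24 h, where that median was 0.

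Microtubule-destabilizing and severing genes had medians of 0.024, -0.16 and -0.31, and 10 of 11 measured were below 0 at 24 h, against 47.4% of all measured genes. With the median over probe sets, over 9 genes, the list median was -0.24 at 16 h and -0.16 at 24 h. STMN1, stathmin, which binds free tubulin dimers and promotes microtubule disassembly, had 1601 (control), 1617 (8 h), 1095 (16 h) and 1054 (24 h). Its 24 h difference of -0.60 was -0.12 with the median over its probe sets. FIGNL1, a relative of the severing enzyme fidgetin, stood at -0.77 at 24 h, KIF18A, a kinesin that limits microtubule length, at -0.94 at 16 h and -0.52 at 24 h, and FIGN, fidgetin itself, at -1.20 at 16 h and -0.67 at 24 h. FIGN was the 1 gene of this list past 2-fold, at 16 h. Its intensities of 147 (control), 114 (8 h), 64.0 (16 h) and 92.6 (24 h) were under the limit for a measured gene (93.9) on the later pair of arrays, so the sizes of its differences are uncertain.

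Proteins that bind along microtubules or at their ends did not go the same way, with medians of 0.042, 0.080 and 0.051. Of the 23 measured genes 8 were below 0 at 24 h, against 47.4% of all measured genes. MAP2, a microtubule-binding protein of neurons, had 188 (control), 312 (8 h), 399.96 (16 h) and 438 (24 h). It was 2.12-fold higher at 16 h (0.386% of all measured genes were 2-fold higher) and 2.32-fold higher at 24 h (0.514%), with differences of 1.09 and 1.22. CAMSAP2 stood at 0.38 and MAP1LC3B at 0.24 at 24 h, and MAP7 at -0.37. The 12 neuron markers, MAP2 among them, had summed intensities of 1184 (control), 1348 (8 h), 1549.7 (16 h) and 1635 (24 h). Only 5 were measured, and the defining markers NEFL, RBFOX3, SNAP25, DCX and STMN2 were not. Most of the change in the sum came from MAP2 and from SYT1, of synaptic vesicles. SYT1 had 256 (control), 197 (8 h), 359 (16 h) and 409.6 (24 h). At 24 h 4 of the 5 measured markers were above 0, as were 6548 of all 12446 measured genes. SYN1 (0.36) and GAP43 (0.11) were among the 4. Only ELAVL4, an RNA-binding protein of neurons, was below 0 at that time (-0.38). ELAVL4 at 24 h (78.8) and SYN1 on the control array (78.8) were under the limit for a measured gene. With the median over probe sets the 24 h values were -0.044 for ELAVL4, 0.066 for SYN1 and 0 for GAP43. The part of these markers in the TUBB2B and TUBB3 values was not tested.

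**Figure D4:**
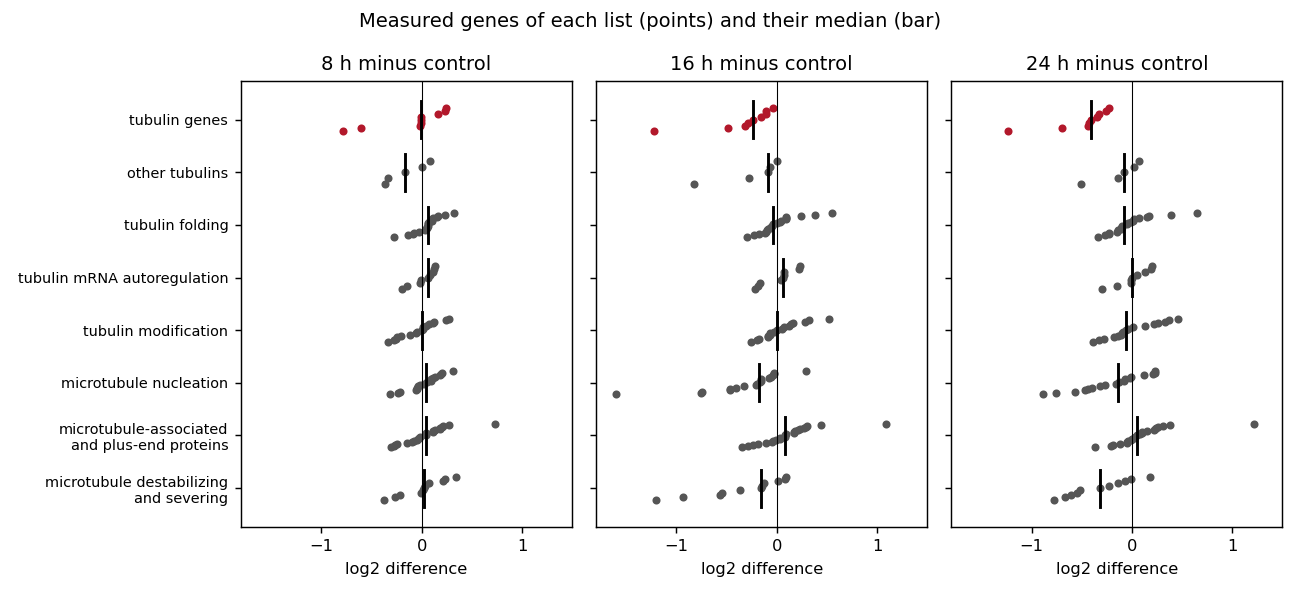
Log2 difference from control (x axis) of each measured gene (points) and the list median (bar) for the tubulin genes and 7 related lists (rows) after 8, 16 and 24 h of MLN4924. At 24 h the median was -0.41 for tubulin genes, -0.31 for destabilizing and severing genes and between -0.14 and 0.051 for the other 6 lists.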

How the data were processed

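Total RNA of MM.1S cells was labelled with biotin and put on Affymetrix arrays, as the labels' protocols state. The values the authors deposited are intensities on a linear scale, while how they were summarised and normalized is not given in the sources used here. Groups came from the sample labels, with 1 array each. The array medians differed by at most 0.0483 (log2), and nothing was added to the authors' normalization. The members, lists and comparisons were chosen with earlier results of these data known.

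Of 54675 probe sets, 41097 had 1 gene in the array annotation, and 41043 of these were matched to RefSeq by Entrez identifier. Values below 48.4, the 25th percentile, were raised to it before taking log2. A gene was read from its single-gene probe set with the highest mean, and was measured if that mean exceeded the median over probe sets (93.9). There was no test, since each group has 1 array, and a difference of 2-fold was the rule of size. The number of arrays limits the precision.

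Named genes were all 10 members, up to 4 measured genes per list with the largest difference from control, and the 3 nearest profiles. CCT3, CCT4, CCT5, CCT8, TTC5, HAUS1, HAUS2, HAUS3, HAUS5 and markers were named in addition, after their values were seen. The script was tested on simulated data. Alternatives covered the floor, the probe set choice, the normalization and the filter. Python 3.11.15, numpy 2.4.6 and pandas 2.3.3 were used.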

Additional observations from a re-analysis of the deposited data

Results flagged for a closer look

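For 3 genes the difference from control had opposite signs at 8 h and at 24 h, each larger than the pooled SD between probe sets of 1 gene at its time, and the change of sign between the times was not tested. TUBA4A stood at 0.23 at 8 h and -0.23 at 24 h. TUBB3 stood at 0.25 and -0.25 at these times, and its second probe set had the same signs. TUBB4B stood at 0.164 at 8 h, just beyond the SD of 0.160, and at -0.33 at 24 h. Its 8 h difference was under that SD with arrays centred on their medians (0.119) and with quantile normalization (0.154). Both differences of each gene share the control array.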

How the results depend on the processing

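The median tubulin difference at 24 h lay between -0.46 and -0.34 over 8 alternatives, and at 16 h between -0.27 and -0.16, below 0 in each, while at 8 h it lay between -0.048 and 0.013. With neither _x_at nor _s_at sets, only TUBA4A, TUBB and TUBB2A could be read, and 0 genes were 2-fold lower at 16 h and 0 at 24 h, since TUBB2B has no other probe set. With a filter at the 75th percentile TUBB2B and TUBB2A left the 9 genes and the counts were likewise 0 and 0. With 1.5-fold as the size that counts, chosen after the data were seen, 2 genes were lower at 8 h (TUBB2B and TUBA1A) and 2 at 24 h (TUBB2B and TUBB2A). With the median over probe sets, the 16 h autoregulation median was -0.14, and the 16 h counts past 2-fold were 0 for nucleation, 0 for plus-end proteins and 0 for destabilizing and severing genes. The nucleation count was also 0 without _x_at and _s_at sets. With the 75th percentile filter the destabilizing and severing median was -0.37 at 16 h and -0.52 at 24 h over 7 genes, with 0 past 2-fold at 16 h. With no filter on low values the median of the rarer tubulins at 8 h was 0. No paired analysis was possible because each group has 1 array. Signal under the floor limits TUBB6. The late TUBB2B values are limited by signal near the limit for a measured gene, and the late FIGN values by signal under it.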
